A study of Homo sapiens with 12 samples.

Results

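Immediate early genes are transcribed soon after a signal reaches the cell, without the need for new protein, and 10 genes of this kind were followed in A375 melanoma cells treated with a BRAF inhibitor, a retinoid or both. The 10 genes were taken by name from the 58347 genes in the files: the zinc finger transcription factors EGR1, EGR2, EGR3 and EGR4, the transcription factor SRF, the immediate early response genes IER2, IER3 and IER5, and PHLDA1 and MCL1. A375 is an established human melanoma line with mutant BRAF. Vemurafenib blocks the mutant kinase, and tretinoin (all-trans retinoic acid) activates the retinoic acid receptors. RNA was sequenced from 12 samples in 4 groups of 3: DMSO (the vehicle), Tretinoin, Vemurafenib, and Combination, in which both drugs were given together. The labels list a dose of 5 µM and 8 h of exposure for all 4 groups, the vehicle included. Nothing beyond this line and this time point was sampled. The labels do not say whether the replicates came from separate cultures, so the P values below measure the spread between these samples, which may be technical.

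The classical route to these genes runs from BRAF through MEK and ERK. ERK phosphorylates ternary complex factors of the ELK family, which sit beside SRF on CArG boxes in the promoters of EGR1 and other immediate early genes, and the EGR proteins then bind GC-rich sites in further promoters. The transcripts of these genes are short-lived, so their levels follow changes in signaling closely, and in BRAF-mutant melanoma the pathway is active without an outside signal.

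The promoters of EGR1, EGR2 and SRF are shown because each held a CArG box, the site that SRF binds, within the 250 bases before an annotated RefSeq transcript start (build GRCh38.p14). Capitals mark the CArG boxes, and each sequence is read 5′ to 3′ on the strand of its gene.
EGR1, chr5:138465229-138465478, + strand: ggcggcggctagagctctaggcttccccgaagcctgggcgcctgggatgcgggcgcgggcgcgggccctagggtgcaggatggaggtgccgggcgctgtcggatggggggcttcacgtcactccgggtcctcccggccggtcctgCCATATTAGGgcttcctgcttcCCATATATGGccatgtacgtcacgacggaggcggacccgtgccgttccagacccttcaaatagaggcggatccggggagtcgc
SRF, chr6:43171019-43171268, + strand: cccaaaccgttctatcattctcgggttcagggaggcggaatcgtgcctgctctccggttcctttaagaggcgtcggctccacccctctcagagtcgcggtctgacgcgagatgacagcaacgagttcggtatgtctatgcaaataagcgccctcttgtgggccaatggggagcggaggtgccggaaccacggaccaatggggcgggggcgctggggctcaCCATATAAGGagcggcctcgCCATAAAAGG
EGR2, chr10:62816367-62816616, - strand: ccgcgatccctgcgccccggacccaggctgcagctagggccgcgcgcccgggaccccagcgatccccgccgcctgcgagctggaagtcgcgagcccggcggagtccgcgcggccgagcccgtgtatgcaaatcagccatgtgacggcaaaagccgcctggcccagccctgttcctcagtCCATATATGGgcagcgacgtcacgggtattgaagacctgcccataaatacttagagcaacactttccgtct
The EGR1 and SRF windows printed lay outside every gene of the annotation used here, upstream of the gene they are named for, and the EGR2 window lay inside the EGR2 gene in an intron of its longer transcripts. EGR1 held 2 CArG boxes, at -105 to -96 and at -83 to -74 from the transcript start. The boxes of SRF itself were at -30 to -21 and at -10 to -1, and the single box of EGR2 was at -71 to -62. Both strands were searched. No window of EGR3, IER3 or MCL1 was searched, so nothing can be said of motifs in their promoters. Of 35116 such windows in the RefSeq table, 1.16% held a CArG box. EGR1 and SRF also each held GCGNGGGCG, the core of an EGR site, which 8.41% of all windows held. The ETS-type motif CCGGAA was found in windows of SRF, IER2, IER5 and PHLDA1, against 14.5% of all windows. ACGTCA, the shorter form of a cAMP response element, was found in 2 copies each in the windows of EGR1 and EGR4 and once in the EGR2 window, against 7.1% of all windows, and the full TGACGTCA was found in none of the 10 windows that covered 7 of the genes, against 1.65%. These motifs did not overlap the CArG boxes. Not all of these windows were intergenic in GENCODE 29: all 250 bases of the PHLDA1 window and 157 of the EGR4 window lay in an exon of the gene itself, and 223 bases of the IER2 window lay in an exon of STX10. A match describes letters only and is not a measured binding site.

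Counts per sample summed to between 13510235 and 21534377. After genes with too few counts were removed, 16740 genes were tested in a single edgeR quasi-likelihood model of all 12 samples, with Benjamini-Hochberg adjustment of P over all of them. All 10 genes were tested, but EGR2 and EGR4, with 1 to 14 counts per sample, passed this filter only through the DMSO and Tretinoin groups. Their tests are therefore given as values, and summaries cover the other 8. Tretinoin replicate 1 stood apart from its group: the chi-square per degree of freedom between its counts and those of replicates 2 and 3 was 19.1 and 21.8, against 2.56 to 8.38 for every other pair of replicates in a group. Scaling by total counts alone, in place of TMM, shifted the median log2 fold change of all genes by 0.19 for vemurafenib and by 0.16 for the combination, each relative to DMSO. The share of called genes that were higher then moved from 50.1% to 71.4% for vemurafenib, from 61.3% to 81.3% for tretinoin, from 50.5% to 68.2% for the combination, from 49.0% to 60.7% for the combination against tretinoin, and from 47.4% to 21.4% for the interaction. Of 9 melanoma markers, 4 exceeded 1 CPM in some group, and SOX10 was listed at 0 in every sample. SOX10 shares 89 of its 3710 exon bases with POLR2F, and whether the 0 reflects expression was not tested. Summed levels of the 9 were 28.2 to 33.2 CPM in DMSO, 26.8 to 31.0 in Tretinoin, 44.5 to 47.1 in Vemurafenib and 40.6 to 42.8 in Combination. Keratinocyte markers (2 of 3 over 1 CPM) summed to 12.5 to 16.4 CPM in DMSO, 9.46 to 14.95 in Tretinoin, 29.4 to 32.1 in Vemurafenib and 26.6 to 35.6 in Combination. Fibroblast markers (3 of 4) summed to 4.25 to 6.23 CPM in DMSO, 4.30 to 4.77 in Tretinoin, 12.8 to 14.9 in Vemurafenib and 9.57 to 10.1 in Combination. Endothelial markers (3 of 3) summed to 5.28 to 6.55 CPM in DMSO, 12.7 to 17.2 in Tretinoin, 2.40 to 3.17 in Vemurafenib and 5.34 to 6.20 in Combination, and immune markers (1 of 3) stayed between 0.838 and 4.73 CPM. The part of these markers in the results below was not tested.

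Vemurafenib lowered 8 of the 8 well-counted genes, by 1.64-fold for SRF up to 11.1-fold for IER3, where 26.3% of all genes were lower. Their median log2 fold change was -1.74, against 0.02 for all genes. No vemurafenib sample of these 8 genes reached the lowest DMSO sample, a separation that 30.9% of all genes showed in this direction. The combination also lowered 8 of the 8 relative to DMSO (26.5% of all genes lower) and left no overlap with DMSO (30.5% of all genes), with a median of -1.10. Tretinoin alone changed 4 of the 8, against 5.68% of all genes: EGR1, EGR3 and PHLDA1 rose (3.48% of all genes higher), and IER3 fell (2.2% lower). When tretinoin was added to vemurafenib, EGR3 and PHLDA1 rose (2.27% of all genes higher). The median of the 8 genes in that direct comparison was only 0.16, against 0.0043 for all genes. The gap between the medians of -1.74 and -1.10 is therefore not the size of a typical change. The comparisons of each treatment with DMSO share the same 3 DMSO samples. In bulk RNA, fewer expressing cells and less RNA per cell cannot be told apart.

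**Figure D1:**
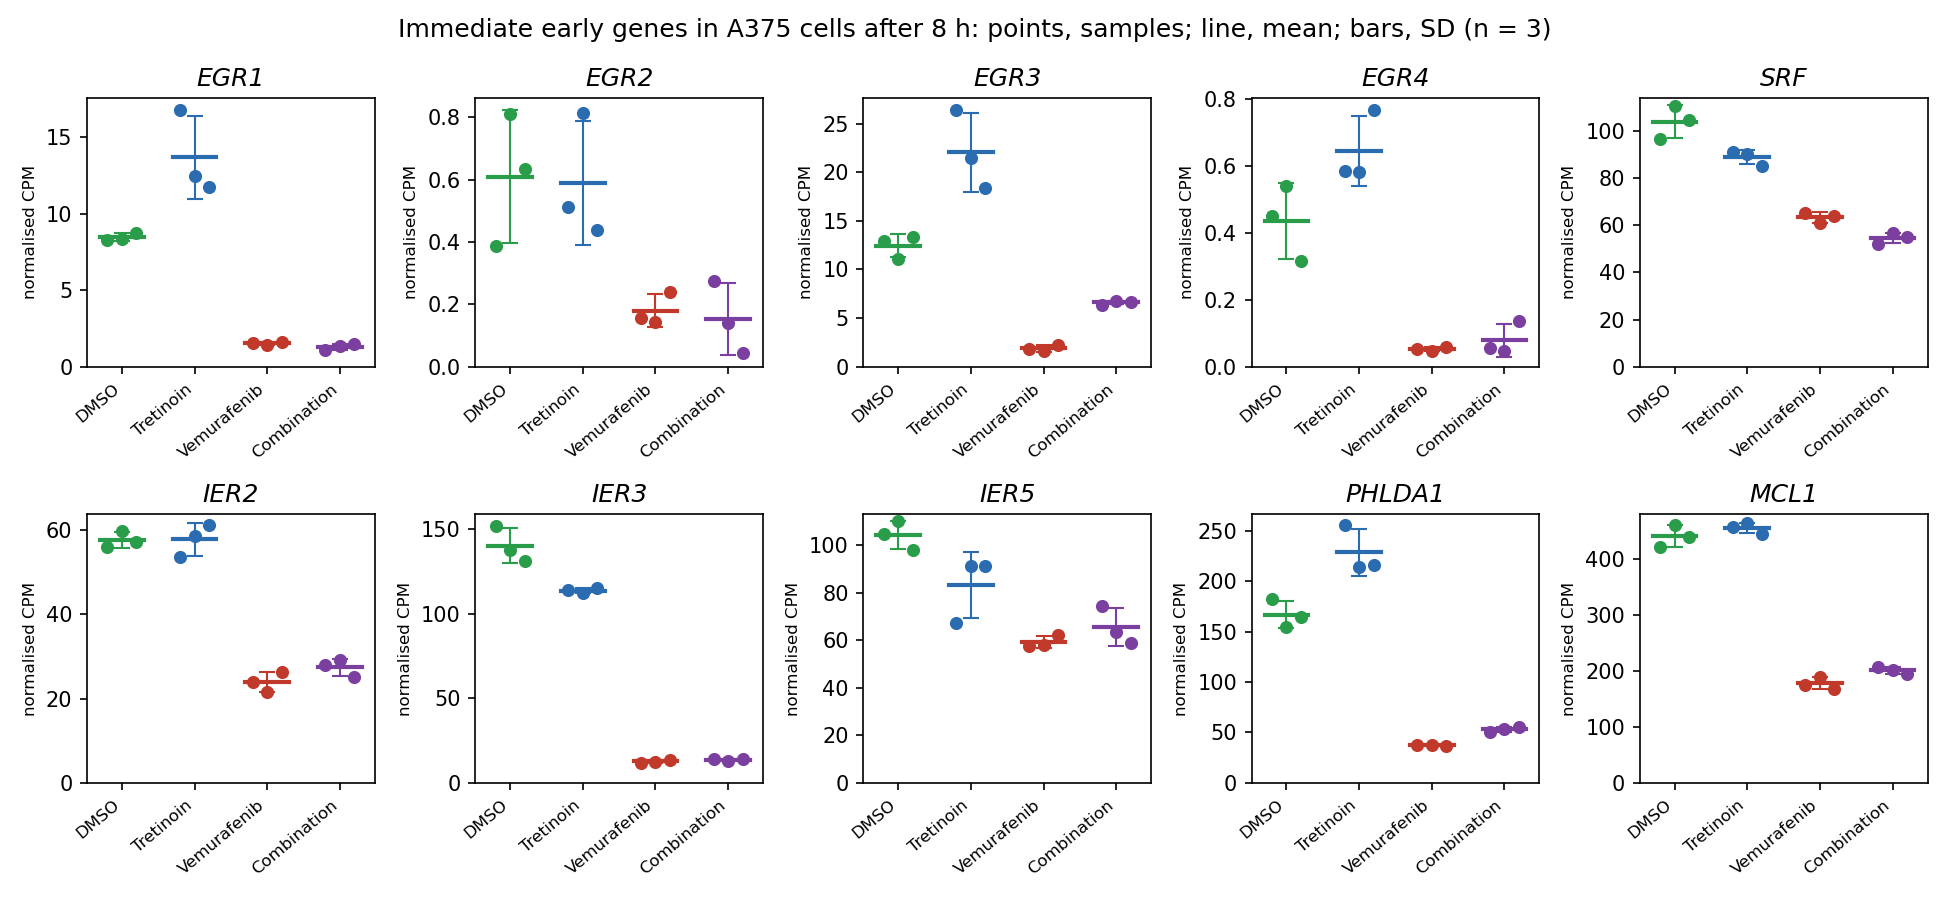
Normalised read counts (CPM, scaled to library size) of the 10 genes in each sample, on a linear axis from 0 that is scaled to each gene. Points are samples, horizontal lines are means and bars are the SD of 3 replicates. For each of the 8 well-counted genes the vemurafenib samples sit below the DMSO samples, and EGR3 in the combination sits between them at 6.38 to 6.74 CPM.

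EGR1 (ENSG00000120738, chr5:138465490-138469315, + strand, GENCODE 29 on GRCh38) is the founding member of the EGR family and a direct target of SRF and the ELK factors. Its normalised level was 8.31, 8.38 and 8.76 CPM in DMSO, 16.8, 12.5 and 11.8 CPM in Tretinoin, 1.56, 1.44 and 1.62 CPM in Vemurafenib, and 1.10, 1.35 and 1.49 CPM in Combination. Tretinoin samples were all above DMSO and the vemurafenib and combination samples all far below it, while Vemurafenib and Combination overlapped. Vemurafenib reduced EGR1 to 18.2% of the DMSO mean (log2 fold change -2.46, SE 0.18, adjusted P = 3.7e-09). Tretinoin raised it 1.60-fold (log2 0.68, SE 0.14, adjusted P = 0.0064), and by 0.51 on the log2 scale without Tretinoin replicate 1, its highest sample (adjusted P = 0.019). In the combination it was at 15.5% of DMSO. No tretinoin effect was detected on top of vemurafenib (log2 -0.21, 95% interval -0.70 to 0.27, adjusted P = 0.79), where only 20 to 33 EGR1 counts per sample were available. The interaction of the drugs, the tretinoin effect with vemurafenib minus that without it, was -0.89 (SE 0.27) and did not pass (adjusted P = 0.14).

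EGR3 (ENSG00000179388), a zinc finger factor of the same family, fell under vemurafenib and was higher in the combination than under vemurafenib. It was measured at 12.9, 11.1 and 13.3 CPM in DMSO, 26.4, 21.4 and 18.3 CPM in Tretinoin, 1.82, 1.59 and 2.22 CPM in Vemurafenib, and 6.38, 6.74 and 6.70 CPM in Combination. All 4 groups were apart, in the order Tretinoin, DMSO, Combination and Vemurafenib, a pattern whose share among all genes was not counted. Vemurafenib reduced EGR3 to 15.1% of DMSO (log2 -2.74, SE 0.17, adjusted P = 5.2e-10), and the combination left 53.2% (log2 -0.91, adjusted P = 2.7e-05). Tretinoin raised it 1.76-fold in the absence of vemurafenib (log2 0.82, SE 0.13, adjusted P = 0.00071) and 3.55-fold in its presence (log2 1.83, SE 0.18, adjusted P = 3.8e-06). That second increase ranked 31 from the top among 16740 genes.

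EGR3 was also the only one of the 8 well-counted genes with a called interaction of the drugs (0.382% of all genes called higher): the log2 tretinoin effect was larger by 1.01 with vemurafenib (SE 0.22, adjusted P = 0.041). Its size stayed between 0.85 and 1.16 in all 19 other fits tried, but the call did not hold in most of them. Of the 12 fits without a single replicate it passed in 2, those without Tretinoin replicate 1 (adjusted P = 0.0018) and Vemurafenib replicate 3 (0.048). It was lost without DMSO replicate 1 (0.073), 2 (0.052) or 3 (0.084), Tretinoin replicate 2 (0.079) or 3 (0.053), Vemurafenib replicate 1 (0.12) or 2 (0.16), or Combination replicate 1 (0.080), 2 (0.11) or 3 (0.086), all adjusted P values. Scaling by total counts gave 0.90 (adjusted P = 0.085).

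The ratio of EGR3 to EGR1 counts, a measure chosen after these values were seen, was 1.32 to 1.55 in DMSO, 1.56 to 1.72 in Tretinoin and 1.10 to 1.37 in Vemurafenib, but 4.48 to 5.80 in Combination. The 3 combination samples thus lay above the other 9. EGR3 shares 164 of its exon bases (3.38%) with AC055854.1, an annotated gene on the opposite strand, and the counting ignored strand. AC055854.1 itself had 6 to 12 counts in DMSO, 13 to 25 in Tretinoin, 15 to 32 in Vemurafenib and 52 to 65 in Combination. From Vemurafenib to Combination its mean went from 26.3 to 59.7 counts, while that of EGR3 went from 35 to 136. With 6 to 12 counts in DMSO, AC055854.1 may have passed the count filter only through the treated groups, which favours low DMSO values. Its tests against DMSO are therefore given as values. Relative to DMSO, AC055854.1 was higher under vemurafenib (log2 1.40, SE 0.35, adjusted P = 0.0030), opposite to EGR3. From Vemurafenib to Combination it was higher in the same direction as EGR3 (log2 1.04, SE 0.26, adjusted P = 0.025), and with tretinoin alone its value was 1.20 (SE 0.37, adjusted P = 0.067). The part of antisense RNA in the EGR3 counts was not tested.

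EGR2 and EGR4, the other family members, were close to the limit of counting. EGR2 (ENSG00000122877, chr10:62811996-62919900, - strand) had 6, 12 and 12 counts in DMSO, 7, 14 and 8 in Tretinoin, 3, 3 and 4 in Vemurafenib, and 5, 3 and 1 in Combination. EGR4 (ENSG00000135625, chr2:73290929-73293705, - strand) had 7, 8 and 6 counts in DMSO, 8, 10 and 14 in Tretinoin, 1 in each Vemurafenib sample, and 1, 1 and 3 in Combination. For both genes all DMSO and Tretinoin samples exceeded all samples that had received vemurafenib. Both passed the count filter only through the DMSO and Tretinoin groups, which favours low values with vemurafenib. This separation and the ratios and tests of vemurafenib below are therefore given as values and are no support for a fall. The depth-adjusted ratio of vemurafenib to DMSO was 0.290 for EGR2 (exact 95% interval 0.126 to 0.609, from 10 against 30 counts) and 0.124 for EGR4 (0.0237 to 0.416, from 3 against 21 counts). These intervals cover counting error only. In the model the log2 fold changes were -1.75 for EGR2 (SE 0.53, adjusted P = 0.011) and -2.86 for EGR4 (SE 0.62, adjusted P = 0.00084). The EGR2 call was lost without DMSO replicate 2 (adjusted P = 0.050). For tretinoin against DMSO the ratio of counts was 0.970 for EGR2 (0.562 to 1.67) and 1.53 for EGR4 (0.855 to 2.79), so changes inside those intervals could not be detected at this depth.

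SRF (ENSG00000112658, chr6:43171299-43181507, + strand) is the factor known to bind CArG boxes, and matches to that motif stood before its own transcript, where no binding was measured. It was at 96.5, 111 and 105 CPM in DMSO, 91.1, 90.3 and 85.3 CPM in Tretinoin, 65.3, 60.9 and 63.8 CPM in Vemurafenib, and 52.2, 56.5 and 54.8 CPM in Combination. The 4 groups did not overlap, a pattern whose share among all genes was not counted. Its fall under vemurafenib, to 60.9% of DMSO, was the smallest of the 8 (log2 -0.72, SE 0.07, adjusted P = 1.2e-07), and in the combination it was at 52.4% (log2 -0.93, SE 0.07, adjusted P = 4.2e-09). The lower values with tretinoin did not pass, whether tretinoin was given alone (log2 -0.23, SE 0.07, adjusted P = 0.058) or with vemurafenib (log2 -0.22, SE 0.07, adjusted P = 0.098). Without Tretinoin replicate 1 both passed (adjusted P = 0.036 and 0.039). The effect of tretinoin alone also passed without DMSO replicate 1 (adjusted P = 0.041) and in DESeq2 with or without a beta prior (0.023 in each). The effect with vemurafenib also passed with total counts (adjusted P = 0.044) and in a fit of those groups alone (0.033).

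The IER genes encode small nuclear or membrane-linked proteins induced by growth factors and stress, and IER3 is linked to ERK signaling and cell survival. IER3 (ENSG00000137331, chr6:30743199-30744554, - strand) showed the largest fall of the 8 genes. It was at 152, 138 and 131 CPM in DMSO, 114, 112 and 115 CPM in Tretinoin, 12.05, 12.2 and 13.8 CPM in Vemurafenib, and 13.98, 13.2 and 14.1 CPM in Combination. Vemurafenib and Combination overlapped, and both were far below the other groups. IER3 under vemurafenib was 11.1-fold lower than in DMSO (log2 -3.47, SE 0.08, adjusted P = 1.8e-15) and ranked 35 from the lowest of 16740 genes. Tretinoin alone lowered it to 81.1% of DMSO (log2 -0.30, SE 0.07, adjusted P = 0.015). This smaller call was lost without DMSO replicate 1 (adjusted P = 0.071), without Tretinoin replicate 2 (0.056), with total counts (0.080) and in a fit of those groups alone (0.11). An antisense gene, IER3-AS1, overlaps 26.5% of IER3's exon bases and had 0 to 2 counts per sample. Fragments over shared bases were assigned to neither gene, so such low counts do not show that antisense RNA was absent.

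IER2 (ENSG00000160888, chr19:13150415-13154908, + strand), a nuclear immediate early protein, was lower in both groups that received vemurafenib. The values were 56.0, 59.8 and 57.0 CPM in DMSO, 53.5, 58.6 and 61.2 CPM in Tretinoin, 23.8, 21.6 and 26.3 CPM in Vemurafenib, and 27.95, 29.1 and 25.2 CPM in Combination. The samples formed a higher pair of overlapping groups, DMSO and Tretinoin, and a lower pair, Vemurafenib and Combination. Vemurafenib left 41.5% of the DMSO level (log2 -1.27, SE 0.09, adjusted P = 1.5e-09), and the tretinoin effect was 0.01 (95% interval -0.17 to 0.18, adjusted P = 0.97). An antisense gene overlaps 30.8% of IER2's exon bases and had no counts in any sample, which has the same limit as for IER3-AS1.

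IER5 (ENSG00000162783, chr1:181088712-181092899, + strand), which assists heat shock factor signaling, changed less. It was at 105, 110 and 98.2 CPM in DMSO, 67.2, 91.4 and 91.1 CPM in Tretinoin, 57.8, 58.1 and 62.1 CPM in Vemurafenib, and 74.3, 63.4 and 58.8 CPM in Combination. All treated samples were below DMSO, and Tretinoin overlapped Combination through Tretinoin replicate 1. Vemurafenib left 56.8% (log2 -0.81, SE 0.11, adjusted P = 4.8e-06). The tretinoin value of -0.32 (SE 0.10) did not pass (adjusted P = 0.080). It was -0.19 without Tretinoin replicate 1 (adjusted P = 0.18) and passed without Tretinoin replicate 3 (adjusted P = 0.044), without a count filter (0.0092) and in DESeq2 without a beta prior (0.047) and with it (0.048). Combination was lower than Tretinoin (log2 -0.35, adjusted P = 0.010), a call lost without Tretinoin replicate 2 (0.052) or Combination replicate 3 (0.059).

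PHLDA1 (ENSG00000139289, chr12:76025447-76033932, - strand), a pleckstrin homology-like protein induced by growth factor signaling, combined a strong fall under vemurafenib with a rise under tretinoin in both settings. It was at 182, 155 and 164 CPM in DMSO, 255, 214 and 216 CPM in Tretinoin, 37.9, 37.1 and 36.5 CPM in Vemurafenib, and 50.4, 53.6 and 55.5 CPM in Combination. No groups overlapped, and the order was the same as for EGR3, a pattern whose share among all genes was not counted. Vemurafenib left 22.3% (log2 -2.17, SE 0.08, adjusted P = 7.9e-13). Tretinoin raised PHLDA1 1.37-fold alone (log2 0.45, SE 0.08, adjusted P = 0.0018) and 1.43-fold with vemurafenib (log2 0.52, SE 0.08, adjusted P = 0.00075). These effects differed by 0.06 (95% interval -0.18 to 0.30, adjusted P = 0.83). Without Tretinoin replicate 1 the first was 0.37 (adjusted P = 0.00071). A pair of antisense genes overlaps 16.5% of PHLDA1's exon bases and had 0 to 2 counts per sample, again with the limit given for IER3-AS1.

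MCL1 (ENSG00000143384, chr1:150574551-150579738, - strand), an anti-apoptotic relative of BCL2 with a very short-lived protein, was counted most deeply. Its level was 422, 461 and 439 CPM in DMSO, 457, 464 and 445 CPM in Tretinoin, 175, 190 and 168 CPM in Vemurafenib, and 208, 201 and 195 CPM in Combination. DMSO and Tretinoin overlapped, and the combination samples were all slightly above the vemurafenib samples. Vemurafenib left 40.4% of the DMSO level (log2 -1.31, SE 0.07, adjusted P = 4.3e-11) and the combination 45.7% (log2 -1.13, SE 0.07, adjusted P = 2.6e-10). The tretinoin effect was 0.05 alone (95% interval -0.09 to 0.19, adjusted P = 0.72) and 0.18 with vemurafenib (0.04 to 0.32, adjusted P = 0.18).

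**Figure D2:**
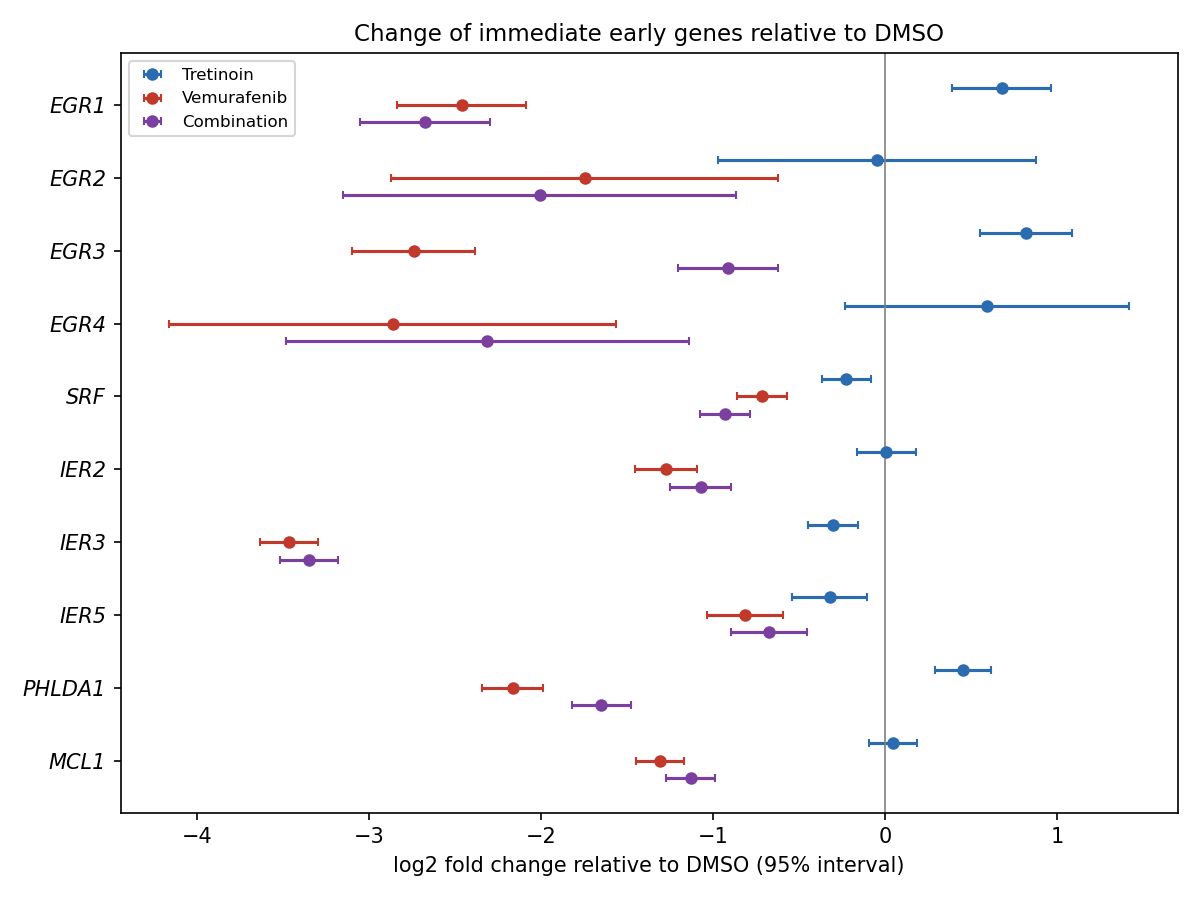
Log2 fold change of the 10 genes relative to DMSO after tretinoin, vemurafenib or the combination, with 95% intervals from the edgeR model (n = 3 per group). The vemurafenib and combination points of the well-counted genes lie below 0, from -3.47 to -0.67. Those of EGR2 and EGR4 also lie below 0, with wide intervals that reflect their few counts. EGR2 and EGR4 passed the count filter only through the DMSO and Tretinoin groups, which favours low values with vemurafenib. Their points are therefore given as values and are no support for a fall.

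Levels of different genes can be set side by side only per kilobase of exon. Fragments over bases that a gene shares with another were assigned to neither, so levels are given per kilobase of unshared exon, as the mean and SD of the 3 DMSO samples. IER3 stood at 141 CPM per kb (SD 10.5) and MCL1 at 101 (SD 4.47). IER2, IER5, PHLDA1 and SRF were close together at 27.1 (SD 0.936), 24.9 (SD 1.44), 24.8 (SD 2.04) and 24.7 CPM per kb (SD 1.67). EGR1 and EGR3 were at 2.70 (SD 0.0770) and 2.65 CPM per kb (SD 0.252), and EGR4 and EGR2 at 0.183 (SD 0.0474) and 0.165 (SD 0.0577). The levels of IER5, PHLDA1 and SRF, of EGR1 and EGR3, and of EGR4 and EGR2 differed by less than the larger SD. IER3 and MCL1 cannot be put in order, since over all exon bases they were at 103 and 101 CPM per kb. Under vemurafenib MCL1 was at 40.7 CPM per kb of unshared exon (SD 2.47), SRF at 15.1 (SD 0.540), IER5 at 14.2 (SD 0.583), IER3 at 12.7 (SD 0.980) and IER2 at 11.2 (SD 1.10).

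Combination against Tretinoin gives the effect of vemurafenib in the presence of the retinoid. Of the 8 well-counted genes 8 were lower (25% of all genes lower), and 7 of the 8 did not overlap, IER5 being the exception (27.5% of all genes). Their median log2 fold change was -1.45, against 0.02 for all genes. EGR1 fell by 3.35 on the log2 scale (SE 0.17, adjusted P = 4.0e-11), PHLDA1 by 2.10 (SE 0.08, adjusted P = 9.0e-13) and EGR3 by 1.73 (SE 0.13, adjusted P = 8.4e-09). For the 7 genes other than EGR3 with enough counts, the difference between the tretinoin effects with and without vemurafenib did not pass the test, with values from -0.89 for EGR1 to 0.46 for IER5. IER3 had an interaction of 0.42 (SE 0.11, adjusted P = 0.092), which passed in DESeq2 without a beta prior (adjusted P = 0.0496) and with it (0.046). The value of IER5 passed without a count filter (0.49, adjusted P = 0.015).

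**Figure D3:**
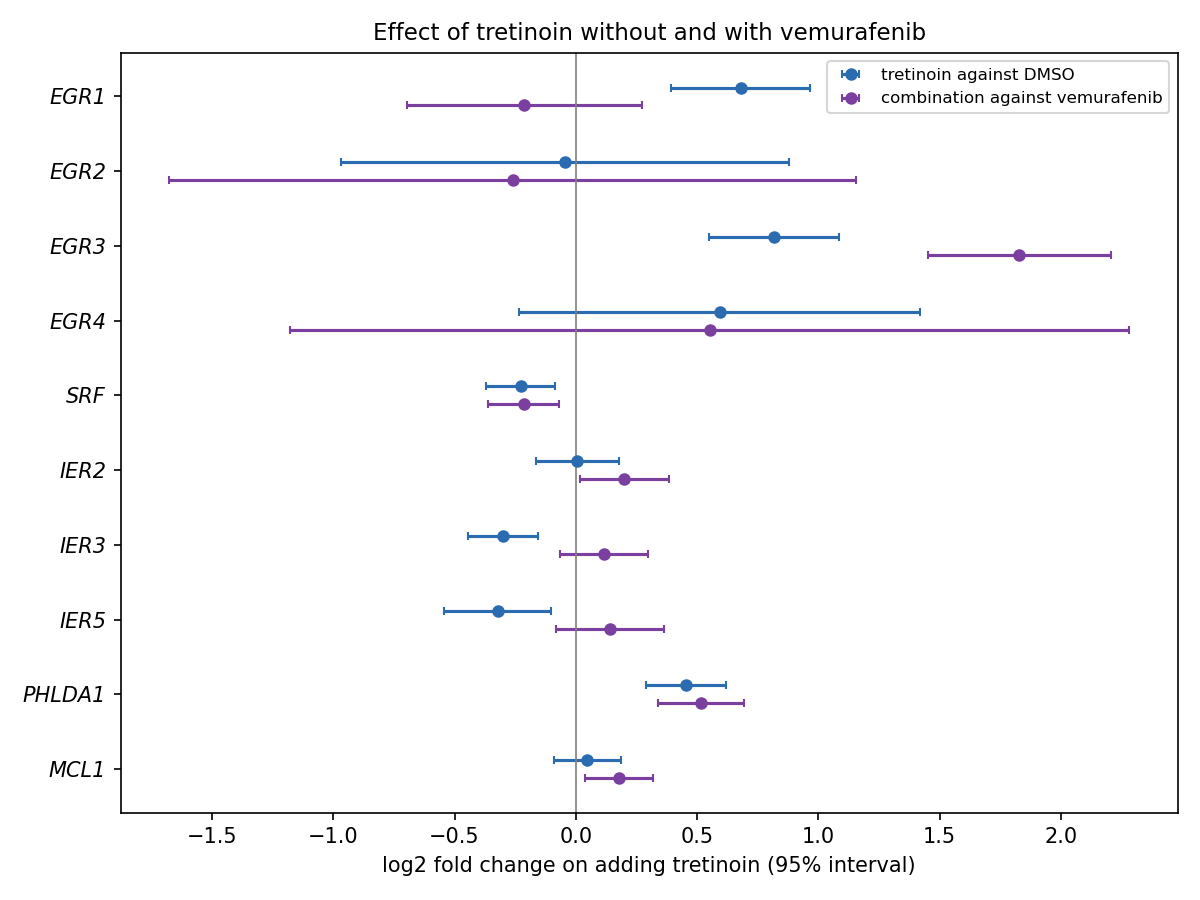
Log2 fold change on adding tretinoin, without vemurafenib (Tretinoin against DMSO) and with it (Combination against Vemurafenib), for each gene with its 95% interval. The intervals of EGR3, 0.55 to 1.08 and 1.45 to 2.21, are apart, and so are those of EGR1, IER3 and IER5. Those of PHLDA1 and the remaining genes lie over each other. Of the well-counted genes only EGR3 had a called interaction, and that call did not hold in most other fits.

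Genes whose normalised levels followed EGR1, IER3, SRF or MCL1 most closely were ranked by the root mean square difference of their log2 levels over the 12 samples, each gene taken relative to its DMSO mean. For EGR1 they were WNK4 (0.195), TGFA (0.218) and HIVEP3 (0.254). The nearest to IER3 were PHLDA2 (0.185), MYC (0.188) and PDE9A (0.196). SRF was most closely matched by IMPDH1 (0.0616), RASSF3 (0.0704) and HSPH1 (0.0768), and MCL1 by RFLNB (0.0971), MCM10 (0.0994) and SLC25A32 (0.102).

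Other genes of the pathway were also lower under vemurafenib. Of 9 genes that report ERK activity, all 9 were lower (26.3% of all genes), with a median log2 fold change of -4.26: the ERK antagonists SPRY4 (-6.55) and DUSP6 (-6.07), the ETS factor ETV5 (-4.67) and the cyclin CCND1 (-4.39). Among 44 further immediate early genes, 36 fell (26.3% of all genes), 3 rose (26.4%) and 5 did not pass, with a median of -1.05. MAFF (-4.04), MYC (-3.69), the cytokine LIF (-3.40) and the AP-1 member FOSL1 (-3.27) fell most, and ARID5B (1.53), BTG2 (0.99) and ATF3 (0.32) rose. Tretinoin alone raised 3 of the 44 (3.48% of all genes higher), FOSB (0.81), LIF (0.71) and TRIB1 (0.47), and lowered 6 (2.2% lower). The largest change with tretinoin among the 44 was a fall, of -1.01. CCN1 was at 49.7% of its DMSO mean. In the combination relative to vemurafenib 7 of the 44 rose (2.27% of all genes), with CCN2 at 0.80 and RHOB at 0.64, and 5 fell (2.2% of all genes): CCN1 (-0.89), ARID5B (-0.74), NR4A1 (-0.57), CSRNP1 (-0.48) and KLF6 (-0.45). The interaction was called for 5 of the 44, all higher (0.382% of all genes): CCN2 (1.04), JUN (0.74), ETS2 (0.68), JUNB (0.62) and RHOB (0.58). Whether these 5 calls held in the other fits is not given. Interaction calls over all genes ranged from 60 to 265 when 1 replicate was left out. The 9 ERK genes lay between -0.10 and 0.28 in the combination relative to vemurafenib, below the 1.83 of EGR3.

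Partners of the 10 genes were mixed. Of 5 tested SRF cofactors under vemurafenib, 3 fell (26.3% of all genes lower) and 2 rose (26.4% higher). The ternary complex factors ELK3 (log2 -1.80, SE 0.09), ELK4 (-0.35, SE 0.09) and ELK1 (-0.26) fell. The actin-regulated coactivators MRTFB (0.66, SE 0.15) and MRTFA (0.41, SE 0.09) rose. The cytoskeletal genes that SRF controls with the MRTFs went both ways, with 4 of 14 higher (26.4% of all genes) and 7 lower (26.3%), and a median of -0.25: ANKRD1 (-3.90) and FHL2 (-1.38) fell, whereas TAGLN (1.41) and MYL9 (1.01) rose. The EGR corepressors NAB1 (-0.28, adjusted P = 0.028) and NAB2 (-0.36, adjusted P = 0.00040) fell slightly. Of the paralogs, PHLDA2 (-3.33) and IER5L (-1.19) fell, and PHLDA3 had a value of 0.04 (adjusted P = 0.75).

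Of 8 genes for MCL1 partners and turnover, 4 were higher and 3 lower under vemurafenib, where 26.4% and 26.3% of all genes were. Of the BH3-only genes, BBC3 (0.92, SE 0.12) and BCL2L11 (0.67, SE 0.09) rose and PMAIP1 (-1.68, SE 0.09) fell. The effector BAK1 (-0.57, SE 0.08) also fell. In the combination relative to vemurafenib 1 of the 8 rose (2.27% of all genes), BCL2L11 (0.54, SE 0.08, adjusted P = 0.00050). As a check on the retinoid, 2 of 5 retinoid response genes rose with tretinoin alone (3.48% of all genes), with DHRS3 at 2.91 and CYP26B1 at 0.58 on the log2 scale. The other 3 did not pass. On top of vemurafenib, tretinoin raised 3 of the 5 (2.27% of all genes), with a median of 1.20 for the 5. Under vemurafenib DHRS3 (1.74), RARB (2.80) and RARRES3 (1.12) were higher and CYP26B1 (-0.42) was lower.

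**Figure D4:**
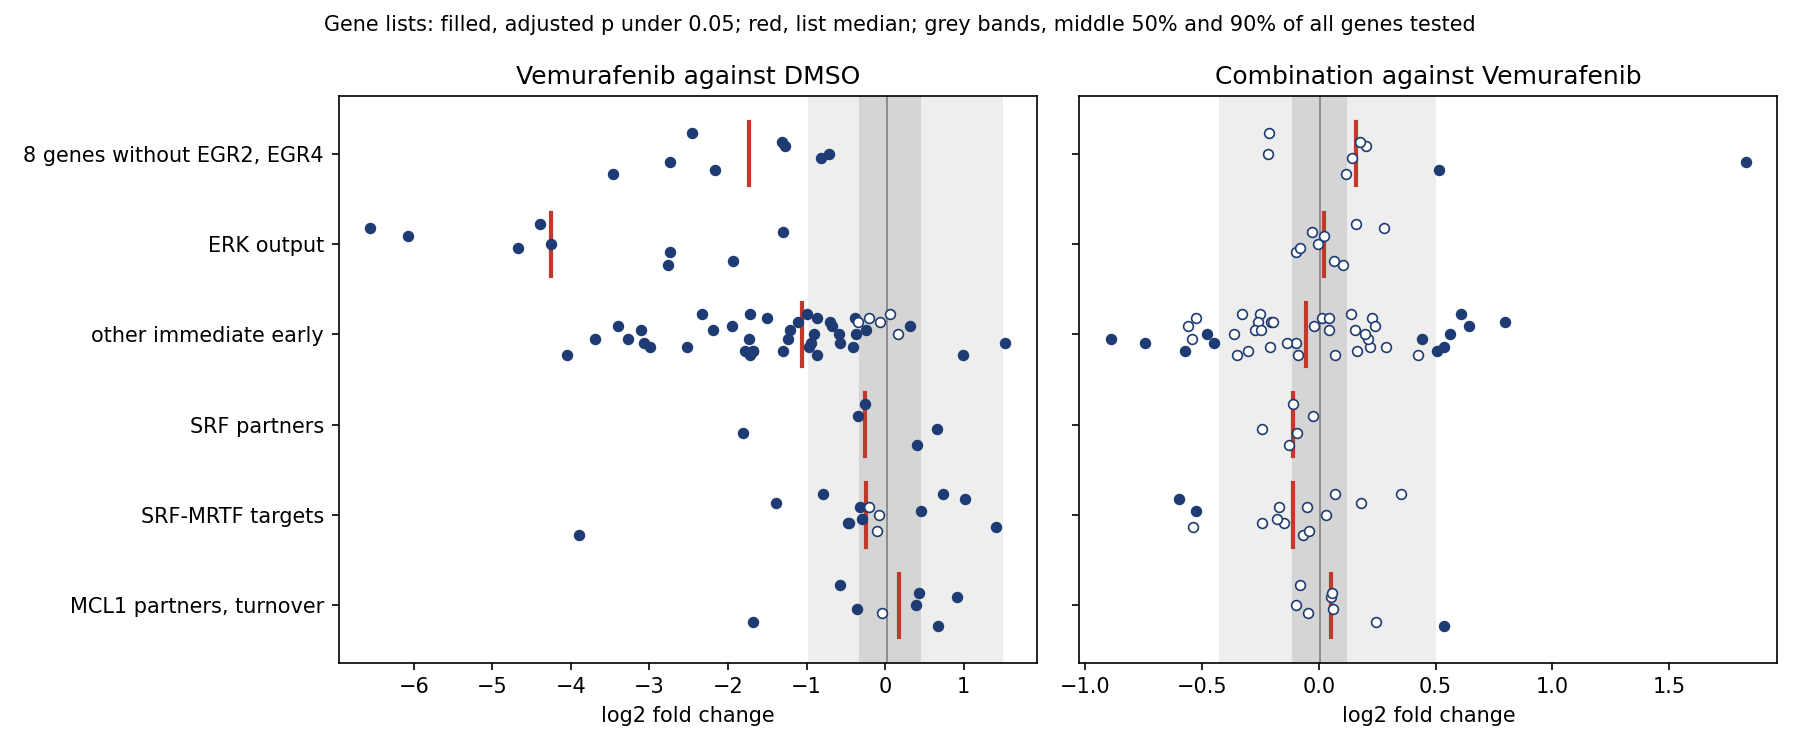
Log2 fold changes of the 8 well-counted genes, ERK genes, other immediate early genes, SRF cofactors, SRF-MRTF targets and MCL1 partners for vemurafenib against DMSO and for the combination against vemurafenib. Each point is a gene (filled when its adjusted P was under 0.05), red lines are list medians, and grey bands hold the middle 50% and 90% of all tested genes. The 8 well-counted genes and the ERK genes lie to the left on the first axis, and on the second EGR3 lies at 1.83, beyond the other genes of these lists. Retinoid response genes, paralogs, corepressors and markers are not drawn.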

How the data were processed

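RNA from 12 A375 samples was poly(A)-selected and sequenced as paired reads by the authors. Per the study's methods they aligned reads with STAR 2.5.3a to GRCh38.p10 and deposited raw fragment counts per GENCODE 27 gene (union mode, strand ignored, not normalized). A fragment over exons of a pair of overlapping genes is assigned to neither in that mode. Groups and replicate numbers came from the labels. Counts were filtered with filterByExpr by group, normalised by TMM and tested with edgeR 4.0.16 (R 4.3.3; glmQLFit and glmQLFTest, 1 term per group, no block, Benjamini-Hochberg adjustment, threshold 0.05). The model was also run on counts simulated from its own fitted means and dispersions, with far fewer genes changed than were called here. Such a run does not test the scaling or the assumptions of the model. The standard error is the log2 fold change divided by the square root of F. CPM are TMM-normalised. Positions used GENCODE 29, and promoters the RefSeq GRCh38.p14 table. By blastn 2.17.0, no stretch of 150 bases or more at 98% identity linked the exons of the 10 genes to another gene, apart from genes that overlap them.

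At the total counts of 13510235 to 21534377 per sample, genes with few counts carried wide errors. All 10 genes were named. Of each other list, up to 4 genes were named: those past the threshold with the largest absolute change under vemurafenib and replicates apart from DMSO, lists of under 4 being named whole. Other list genes named outside this rule were chosen after their values were seen. The 10 genes and the lists were chosen with earlier results of these data known. Alternatives were DESeq2 1.42.0 with and without a beta prior, its size factors, total counts, other count filters, only the groups compared, a replicate block, and each replicate left out. The authors' reads were not analysed here.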

Additional observations from a re-analysis of the deposited data

Results flagged for a closer look

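The effect of tretinoin on EGR3 differed with vemurafenib, by the interaction term of the edgeR model. It was larger by 1.01 on the log2 scale in the presence of vemurafenib (SE 0.22, adjusted P = 0.041). The call passed in 7 of the 19 other fits. All 3 combination samples were above all 3 vemurafenib samples, and all 3 tretinoin samples above all 3 DMSO samples. The share of all genes separated in this way was not counted. These separations go with the called rise in each setting and do not show that the rises differed. The cause was not tested.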

How the results depend on the processing

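In vemurafenib and the combination against DMSO, and in the combination against tretinoin, the 8 genes with at least 10 counts in every sample kept their direction and their call in every alternative, except IER5 against tretinoin (adjusted P = 0.051 in a fit of those groups alone, 0.052 without Tretinoin replicate 2 and 0.059 without Combination replicate 3). With at least 10 counts required in every sample, EGR2 and EGR4 were not tested. The calls of EGR1, EGR3 and PHLDA1 with tretinoin, and of EGR3 and PHLDA1 in the combination against vemurafenib, held in all alternatives.

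The number of the 10 genes called for the interaction was 2 with DESeq2, with or without a beta prior (EGR3 and IER3), 2 without a count filter (EGR3 and IER5) and 0 with total counts. All genes called for it numbered 276 and 280 with DESeq2 without and with the prior and 610 without a filter, against 135. For tretinoin against DMSO, 951 genes were called, 1540 without a filter and 305 in a fit of those groups alone. For the combination against vemurafenib, 749 became 1269 in such a fit. No interaction value comes from a fit of only the groups compared.

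Leaving out 1 replicate moved the genes called from 379 to 1367 for tretinoin, from 460 to 1172 for the combination against vemurafenib and from 60 to 265 for the interaction, with 0 to 1 of the 10 genes called for the last.

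Same-numbered replicates did not deviate together (mean correlation -0.03 over 18 pairs, none over 0.1). With the replicate number as a block, 0 of the 10 genes and 75 of all genes were called for the interaction (EGR3 1.01, adjusted P = 0.067), and 648 genes for tretinoin.

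Values that changed sign were never called. For tretinoin against DMSO, IER2 was -0.0035 and -0.0034 with DESeq2 without and with the prior, -0.0037 with its size factors and -0.0042 without a filter, and EGR2 was 0.025 with total counts. For the interaction, EGR4 was 0.025 with DESeq2 without the prior, SRF -0.10 and PHLDA1 -0.043 with total counts. Without 1 replicate, tretinoin against DMSO ranged from -0.038 to 0.056 for IER2 and from -0.36 to 0.18 for EGR2. The combination against vemurafenib ranged from -0.90 to 0.18 for EGR2 and from -0.065 to 0.82 for EGR4, and the interaction from -0.85 to 0.23 for EGR2, -0.66 to 0.23 for EGR4, -0.034 to 0.057 for SRF and -0.0065 to 0.15 for PHLDA1. The causes were not tested. Depth limits EGR2 and EGR4 most, and EGR1 after vemurafenib.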
